A study of Homo sapiens with 8 samples.

Results

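The MYC network genes described here are the 10 genes MYC, MYCN, MYCL, MAX, MXD1, MXD3, MXD4, MXI1, MNT and MLX, found by symbol in a table of 60332 genes. Each symbol had a single entry. A mean of at least 1 FPKM (fragments per kilobase of transcript per M (mega) mapped reads) over the 8 libraries was required for testing. It was reached by 9 of the 10 genes and by 15175 genes in all, and MXD1 fell short of it.

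The samples were poly-A RNA of RD-ES and SK-N-MC, established cell lines derived from Ewing sarcoma, a tumor driven by the EWSR1::FLI1 fusion. The eKD2 cells of each line carried dCas9-KRAB, a Cas9 that binds without cutting and is joined to a repressor domain. Its guide was aimed next to the GGAA repeat in the enhancer of LOXHD1. The control cells of each line carried the empty dCas9-KRAB virus according to the sample labels, whereas the study also calls them parental. Each of the 4 groups (RD-ES control, RD-ES eKD2, SK-N-MC control and SK-N-MC eKD2) had 2 libraries, described in the methods as biological duplicates. Infection was at a multiplicity of 10 and was followed by 3 days of puromycin (1 µg/ml). The cells were used for up to 5 passages, and each line was kept as a pool of infected cells and not as a clone.

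MYC, MYCN and MYCL are transcription factors that bind DNA only as partners of MAX, and at the E-box sequence CACGTG the pairs recruit co-activators that drive ribosome production, metabolism and cell division. The MXD proteins (MXD1, MXD3, MXD4 and MXI1, which is also called MXD2) and MNT compete for the same MAX and bring SIN3 and histone deacetylases to the same sites. MLX is a MAX-like protein that pairs with MNT and some MXD proteins, and with the glucose-sensing factors MLXIP (MondoA) and MLXIPL (ChREBP). In Ewing sarcoma MYC is known as one of the growth drivers downstream of the fusion, so the levels of activators and antagonists in each line, and their change when the LOXHD1 enhancer was silenced, are the question addressed here.

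Promoter windows from 250 bases before to 50 bases after the annotated start (RefSeq, build GRCh38.p14) were matched for 9 of the 10 genes, with no entry for MYC. The E-box CACGTG, which reads the same on both strands, was present in 3 of the 9 (MXD4, MNT and MLX), against 8.77% of 27305 genes with a window and 12.8% of the 10014 of them that passed the expression filter. These 3 stretches are shown because they are the E-boxes within the network itself, each 5′ to 3′ on the strand of the gene with the E-box in capitals. The MXD4 stretch is chr4:2262302-2262359 on the minus strand, with the E-box starting 238 bases before the start of transcription. The MNT stretch is chr17:2401208-2401293 on the minus strand, with the E-box 193 bases before the start. The MLX stretch is chr17:42567010-42567095 on the plus strand, with the E-box 50 bases before the start. A match describes the letters of the window and does not show binding.
MXD4: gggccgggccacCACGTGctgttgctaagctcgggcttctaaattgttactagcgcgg
MNT: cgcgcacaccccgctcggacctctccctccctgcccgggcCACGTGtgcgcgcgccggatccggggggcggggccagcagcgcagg
MLX: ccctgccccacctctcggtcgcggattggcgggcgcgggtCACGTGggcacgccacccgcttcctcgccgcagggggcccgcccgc

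The libraries were checked before the comparisons. LOXHD1, the gene the silenced enhancer serves, was at 21.4 and 21.2 FPKM in RD-ES controls and at 1.04 and 1.02 FPKM in RD-ES cells with eKD2. In SK-N-MC it was at 159 and 169 FPKM in control and at 11.0 and 12.0 FPKM in eKD2, so the groups did not overlap in either line. The read totals are not given with the values, and the steps between low FPKM values gave rough depths from 7.49 M reads (RD-ES eKD2 replicate 1) to 30.1 M (SK-N-MC control replicate 1). All 6 Ewing sarcoma markers examined (NR0B1, NKX2-2, CD99, STEAP1, PAX7 and BCL11B) passed the filter, and their summed level was 608 to 722 FPKM in RD-ES and 451 to 472 FPKM in SK-N-MC. CD99 was the largest part of these sums, at 586 and 566 FPKM in RD-ES controls and 201 and 216 FPKM in SK-N-MC controls. Between the control lines 4 of the 6 were higher in SK-N-MC (limma adjusted p under 0.05), where 31.4% of all genes were. Only 1 was lower, where 26.4% were. NR0B1 was at 2.38 and 3.77 FPKM in RD-ES controls and at 51.0 and 55.2 FPKM in SK-N-MC controls. Markers of other cell types differed between the lines more than within them. PTPRC, a leukocyte gene, was at 19.2 to 22.6 FPKM in SK-N-MC and at most 0.0173 FPKM in RD-ES, and DCN, a fibroblast gene, was at 134 to 159 FPKM in SK-N-MC and 0.695 to 2.90 FPKM in RD-ES. CD3E was listed at 0 in every library, and VWF stayed under 1 FPKM. EPCAM and CDH1, epithelial genes, summed to 3.09 to 4.58 FPKM in SK-N-MC and 0.401 to 4.47 FPKM in RD-ES, with the highest RD-ES value in eKD2 replicate 1.

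**Figure D1:**
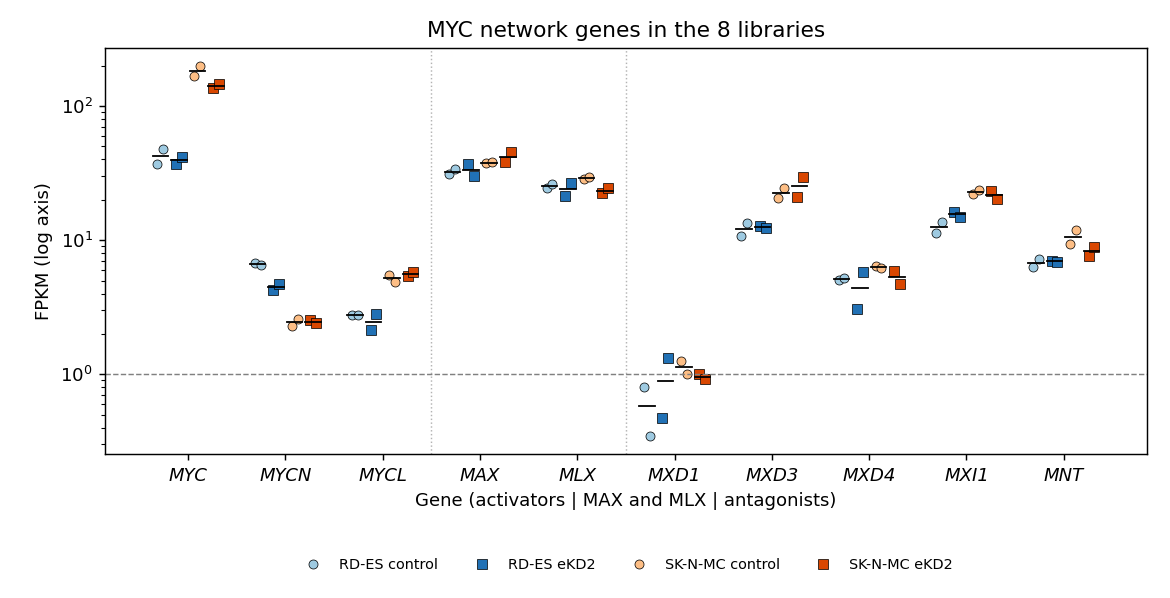
FPKM of the 10 genes on a log axis, with 1 point per library, circles for control and squares for eKD2, and a line at the mean of each group (n = 2). The dashed line marks 1 FPKM. MYC lies between 36.7 and 47.4 FPKM in RD-ES and between 135 and 198 FPKM in SK-N-MC, and most values of MXD1 lie at or under 1.26 FPKM.

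MYC was the most abundant activator in every library. It was at 37.0 and 47.4 FPKM in RD-ES controls and at 169 and 198 FPKM in SK-N-MC controls, means of 42.2 ± 7.40 and 183 ± 20.6 FPKM (SD, n = 2 each). The lines did not overlap. MYC RNA was higher in SK-N-MC by 2.10 on the log2 scale (standard error 0.145, 95% confidence interval 1.74 to 2.45, limma adjusted p = 1.0e-04). This and all later fold changes are differences of log2(FPKM + 1), a scale that understates the change of low genes.

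MYCN, the paralog best known from neuroblastoma, had the opposite order. It was at 6.79 and 6.51 FPKM in RD-ES controls and at 2.31 and 2.58 FPKM in SK-N-MC controls, and was lower in SK-N-MC (log2 fold change -1.15, standard error 0.113, limma adjusted p = 3.6e-04). MYCL, first described in lung cancer, was at 2.77 and 2.76 FPKM in RD-ES controls and at 5.48 and 4.91 FPKM in SK-N-MC controls, higher in SK-N-MC by 0.72 on the log2 scale (standard error 0.137, limma adjusted p = 0.0052). MYC made up 81.8% of the summed activator FPKM in RD-ES controls, MYCN 12.9% and MYCL 5.35%. In SK-N-MC controls the shares were 96.0% for MYC, 1.28% for MYCN and 2.73% for MYCL, so the order of the lesser activators was turned around.

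MAX, the common partner, was at 30.9 and 33.7 FPKM in RD-ES controls and at 37.4 and 37.9 FPKM in SK-N-MC controls. MLX was at 24.4 and 26.4 FPKM in RD-ES controls and at 28.5 and 29.3 FPKM in SK-N-MC controls. Both were above the RD-ES values in both SK-N-MC libraries, but neither difference passed the test. The log2 fold change of MAX was 0.22 (95% confidence interval -0.093 to 0.52, limma adjusted p = 0.19) and that of MLX 0.18 (95% confidence interval -0.11 to 0.47, limma adjusted p = 0.23). MAX was thus below the summed activators in every library, with a log2 ratio of MAX to activators of -0.67 ± 0.11 in RD-ES controls and -2.34 ± 0.14 in SK-N-MC controls (SD, n = 2 each).

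Among the antagonists, MXI1 and MXD3 had the highest levels in both lines. MXI1 was at 11.3 and 13.7 FPKM in RD-ES controls and at 22.0 and 23.5 FPKM in SK-N-MC controls (log2 fold change 0.82, standard error 0.120, limma adjusted p = 0.0018). MXD3, an antagonist linked to S phase, was at 10.7 and 13.4 FPKM in RD-ES controls and at 20.8 and 24.3 FPKM in SK-N-MC controls (log2 fold change 0.86, standard error 0.180, limma adjusted p = 0.0078). The levels of MXI1 and MXD3 overlapped each other in both control groups. MNT, the broadly expressed antagonist, was at 6.32 and 7.30 FPKM in RD-ES controls and at 9.42 and 11.8 FPKM in SK-N-MC controls (log2 fold change 0.57, standard error 0.138, limma adjusted p = 0.013).

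MXD4, which is associated with differentiated cells, was at 5.04 and 5.22 FPKM in RD-ES controls and at 6.37 and 6.25 FPKM in SK-N-MC controls, a log2 difference of 0.25 that did not pass (95% confidence interval -0.33 to 0.84, limma adjusted p = 0.40). MXD1, which is induced on differentiation, was at 0.804 and 0.347 FPKM in RD-ES controls and at 1.26 and 0.999 FPKM in SK-N-MC controls and was not tested. Of the 9 genes tested, 5 were higher in SK-N-MC controls (MYC, MYCL, MXD3, MXI1 and MNT), where 31.4% of all genes tested were, and 1 was lower (MYCN), where 26.4% of all genes were. That is 6 of 9 called in either direction against 57.8% of all genes, a share near the background. The calls of MXD3 and MNT were lost without RD-ES control replicate 1 (log2 0.71, limma adjusted p = 0.051, and log2 0.48, limma adjusted p = 0.076) and without SK-N-MC control replicate 2 (log2 0.75, limma adjusted p = 0.057, and log2 0.42, limma adjusted p = 0.076). PTPRC and DCN differed with the line too, and their part in these differences was not tested.

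In RD-ES controls the order of the levels was MYC, MAX, MLX, MXI1, MXD3, MNT, MYCN, MXD4, MYCL and MXD1. Neighbours overlapped between their libraries for MXI1 with MXD3 and for MNT with MYCN. In SK-N-MC controls the order was MYC, MAX, MLX, MXI1, MXD3, MNT, MXD4, MYCL, MYCN and MXD1, and only MXI1 with MXD3 overlapped. The first 6 places were the same, with MYC 1.31 times the level of MAX in RD-ES controls and 4.86 times in SK-N-MC controls. In eKD2 the libraries of MYC and MAX overlapped in RD-ES, and those of MXD3, MLX and MXI1 did so between neighbours in SK-N-MC. MXD4 overlapped MYCN in RD-ES eKD2 cells and MYCL in SK-N-MC eKD2 cells.

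By the GENCODE annotation on GRCh37, the build of the files, MAX (ENSG00000125952.18_2) lies on chromosome 14 from 65472892 to 65569413 and MLX (ENSG00000108788.11_2) on chromosome 17 from 40719090 to 40725257. MXD3 (ENSG00000213347.10_3) lies on chromosome 5 from 176728462 to 176739758, and MXI1 (ENSG00000119950.20_4) on chromosome 10 from 111967363 to 112047123. MNT (ENSG00000070444.14_2) spans bases 2287367 to 2304398 of chromosome 17 and MXD4 (ENSG00000123933.16_3) bases 2249159 to 2263836 of chromosome 4. MYCN (ENSG00000134323.11_2) and MXD1 (ENSG00000059728.10_3) are on chromosome 2, from 16080672 to 16087129 and from 70124820 to 70170077, and MYCL (ENSG00000116990.10_3) is on chromosome 1 from 40361100 to 40367928. The library kit did not mark the strand, and some exons are shared with other genes. In MXD3 43.7% of the exonic bases are shared. Of all its exonic bases, 24.2% are shared with PRELID1 on the opposite strand, whose mean was 210 FPKM, and 19.5% with RAB24 on the same strand. The shared part is 18.2% for MLX (with PSMC3IP, mean 37.5 FPKM), 16.1% for MAX (mostly with FNTB, mean 23.6 FPKM), 12.2% for MNT (with an antisense RNA at 0.0193 FPKM) and at most 4.55% for the other genes. Levels of MXD3, MLX and MAX are uncertain by reads that could belong to those neighbours.

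Between eKD2 and control, no gene of the network passed limma's adjusted threshold of 0.05 in either line. In RD-ES 0 of 9 were called, where 0.343% of all genes were, and in SK-N-MC 0 of 9, where 0.323% were. At an unadjusted p under 0.05 there were 2 of 9 in RD-ES (12.3% of all genes) and 2 of 9 in SK-N-MC (13.0% of all genes). The median log2 fold change of the 9 genes was -0.093 in the RD-ES comparison and -0.061 in that of SK-N-MC, against 0.031 and -0.0049 over all genes tested. With 2 libraries on each side, the smallest two-sided p of an exact permutation test is 0.333, so the p-values come from limma, which shares the spread between genes.

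**Figure D2:**
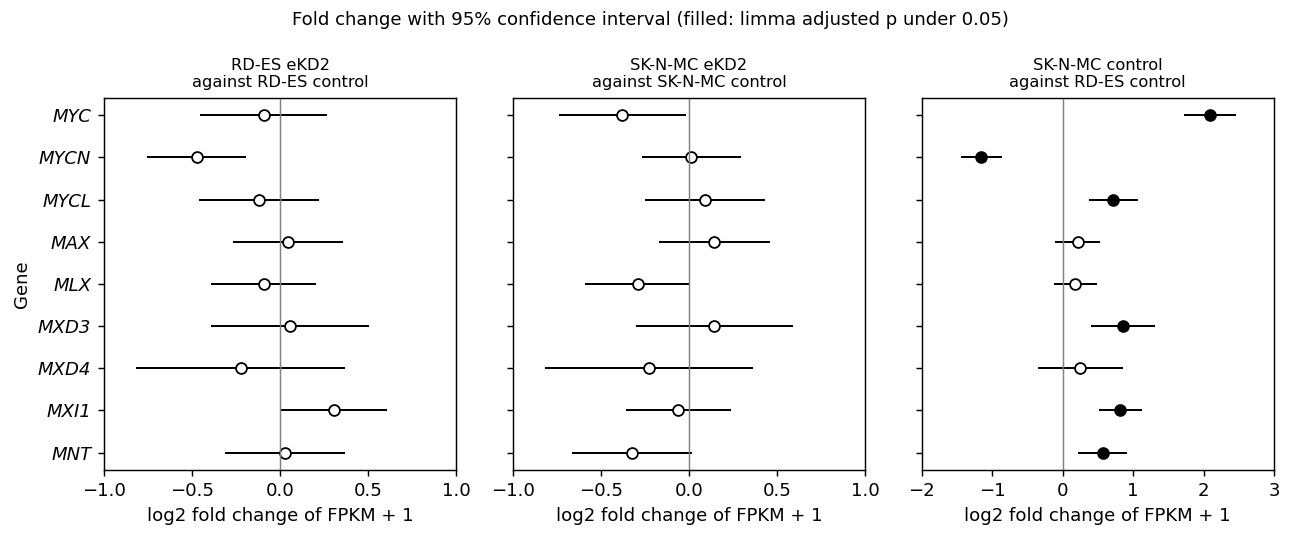
Log2 fold change of FPKM + 1 for the 9 genes tested, with the 95% confidence interval from limma, in RD-ES eKD2 against control, SK-N-MC eKD2 against control, and SK-N-MC controls against RD-ES controls (a wider axis). Filled points have an adjusted p under 0.05, which 0, 0 and 6 genes reach.

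In RD-ES the gene of the network with the smallest p was MYCN. It was at 6.79 and 6.51 FPKM in control and at 4.27 and 4.75 FPKM in eKD2, with no overlap and a log2 fold change of -0.47 (standard error 0.113, 95% confidence interval -0.75 to -0.20, unadjusted p = 0.0055, limma adjusted p = 0.22). MXI1 lay the other way, at 11.3 and 13.7 FPKM in control and at 16.3 and 14.9 FPKM in eKD2 (log2 fold change 0.31, 95% confidence interval 0.011 to 0.60, unadjusted p = 0.044, limma adjusted p = 0.39). Without RD-ES control replicate 1 its log2 fold change was 0.18, and with each library left out in turn it was at most 0.44. These were the only members tested whose RD-ES groups did not overlap, 1 higher, where 24.2% of all genes lay higher without overlap, and 1 lower, where 15.1% lay lower. MYC was at 36.7 and 41.8 FPKM in RD-ES cells with eKD2, within or just under the control values of 37.0 and 47.4 FPKM (log2 fold change -0.094, 95% confidence interval -0.45 to 0.26, limma adjusted p = 0.84).

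The other members overlapped between control and eKD2 in RD-ES. MAX was at 36.8 and 30.2 FPKM in eKD2, MLX at 21.2 and 26.6 FPKM, and MYCL at 2.12 and 2.83 FPKM. MXD3 was at 12.7 and 12.3 FPKM in eKD2 and MNT at 7.01 and 6.88 FPKM, in both cases inside the control range. MXD4 was at 3.07 and 5.75 FPKM in the RD-ES eKD2 libraries, and MXD1 at 0.469 and 1.32 FPKM. In MYCL, MXD4, MXD1 and MLX the lower eKD2 value came from replicate 1, the shallowest library. In MAX, MXD3 and MNT the higher eKD2 value came from that library, and the part of depth was not tested.

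In SK-N-MC both eKD2 libraries lay below both control libraries for MYC. It was at 169 and 198 FPKM in control and at 135 and 145 FPKM in eKD2, means of 183 ± 20.6 and 140 ± 7.24 FPKM (SD, n = 2 each). The log2 fold change was -0.38 (standard error 0.145, 95% confidence interval -0.73 to -0.025, unadjusted p = 0.040, limma adjusted p = 0.36). MLX was at 28.5 and 29.3 FPKM in control and at 22.5 and 24.4 FPKM in eKD2 (log2 fold change -0.29, unadjusted p = 0.0498, limma adjusted p = 0.38). MNT was at 9.42 and 11.8 FPKM in control and at 7.65 and 8.86 FPKM in eKD2 (log2 fold change -0.32, unadjusted p = 0.057, limma adjusted p = 0.40), and -0.47 to -0.17 with each library left out in turn.

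MXD4 also lay lower without overlap in SK-N-MC, at 5.85 and 4.69 FPKM in eKD2, and MAX lay higher, at 38.3 and 45.4 FPKM. Thus 4 of the 9 genes tested (MYC, MXD4, MNT and MLX) lay lower without overlap, where 25.1% of all genes did, and 1 (MAX) lay higher, where 22.2% did. MXD4, MNT and MLX are the genes whose promoter windows hold the E-box printed above, and MYC had no window. In RD-ES the same genes overlapped control, and a link between the E-box and the eKD2 change was not tested. MXI1 was at 23.2 and 20.4 FPKM in SK-N-MC cells with eKD2 and MXD3 at 21.1 and 29.4 FPKM, both overlapping control. MYCN was at 2.54 and 2.40 FPKM and MYCL at 5.41 and 5.77 FPKM, with log2 fold changes of 0.013 and 0.090. MXD1, which was not tested, was at 0.997 and 0.921 FPKM, just under its control values.

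The difference of the eKD2 change between the lines was tested as an interaction, which 0 of the 9 genes passed after adjustment, where 0.244% of all genes did. At an unadjusted p under 0.05 it was 1 of 9, where 13.5% of all genes were. That gene was MYCN, at a log2 fold change of 0.013 in SK-N-MC but -0.47 in RD-ES, a signed difference of 0.49 (SK-N-MC minus RD-ES, 95% confidence interval 0.099 to 0.88, unadjusted p = 0.022, limma adjusted p = 0.29). For MYC the difference was -0.28 (95% confidence interval -0.79 to 0.22, limma adjusted p = 0.61), and for MXI1 it was -0.37 (95% confidence interval -0.78 to 0.050, limma adjusted p = 0.43).

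The balance was taken as the log2 ratio of the summed FPKM of MYC, MYCN and MYCL to that of MXD1, MXD3, MXD4, MXI1 and MNT, and is given without a test because it is a score over the members. In RD-ES it was 0.45 and 0.51 in the control libraries and 0.12 and 0.27 in the eKD2 libraries. In SK-N-MC it was 1.56 and 1.62 in control and 1.28 and 1.26 in eKD2. The eKD2 libraries lay below the control libraries of their own line in both lines, and all SK-N-MC libraries lay above all RD-ES libraries.

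The mean of the log2 ratio was 0.48 ± 0.043 in RD-ES controls and 0.19 ± 0.10 in RD-ES eKD2, a difference of -0.28, and 1.59 ± 0.042 in SK-N-MC controls and 1.27 ± 0.018 in the SK-N-MC eKD2 cells (SD, n = 2 each), a difference of -0.32. On a linear scale the activators summed to 1.36 and 1.42 times the antagonists in RD-ES controls and to 1.09 and 1.20 times in RD-ES eKD2. In SK-N-MC they summed to 2.95 and 3.07 times the antagonists in control and to 2.43 and 2.39 times in eKD2. With MYC as the only activator the differences were -0.22 and -0.34, without MNT -0.30 and -0.37, and after quantile normalization -0.23 and -0.35, in RD-ES and SK-N-MC respectively, with the eKD2 libraries below control each time. RNA levels stand in for the proteins here, whose amounts were not measured in these libraries.

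The sums behind the ratio differ in level between the lines. In SK-N-MC the activators were at 191 ± 20.3 FPKM in control and 148 ± 7.39 FPKM in eKD2, and the antagonists at 63.4 ± 4.94 and 61.5 ± 3.84 FPKM (SD, n = 2 each). In RD-ES the activators were at 51.6 ± 7.19 and 46.3 ± 4.47 FPKM and the antagonists at 37.0 ± 4.07 and 40.3 ± 1.08 FPKM (SD, n = 2 each). MXI1 was 33.7% of the antagonist sum in RD-ES controls and 38.7% in RD-ES eKD2. MXD3 was 35.6% of it in SK-N-MC controls and 41.0% in SK-N-MC eKD2. The uncertainty from the shared exons of MXD3 applies to these shares and to the ratio. The log2 ratio of MAX to the activators was -0.47 ± 0.34 in RD-ES eKD2 cells and -1.83 ± 0.10 in SK-N-MC eKD2 cells (SD, n = 2 each), and in SK-N-MC this lay above control without overlap.

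**Figure D3:**
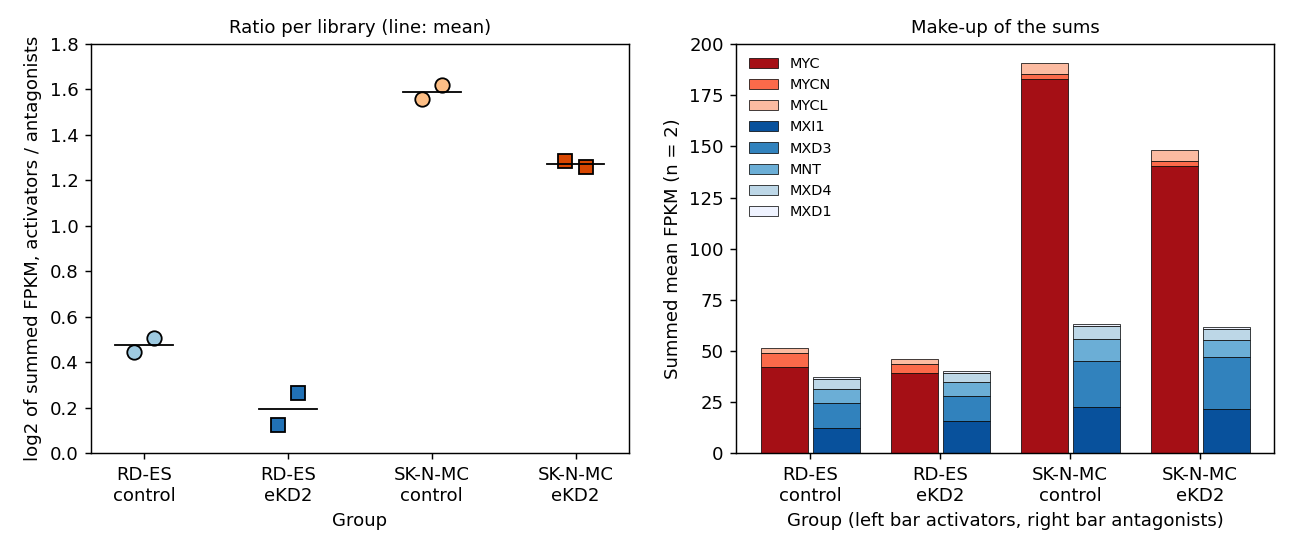
Left, log2 ratio of the summed FPKM of activators to antagonists in each library, with a line at the mean of each group. Right, the summed mean FPKM by gene, activators in the left bar and antagonists in the right bar of each group. The ratio lies at 0.12 to 0.51 in RD-ES and at 1.26 to 1.62 in SK-N-MC, with eKD2 below control in each line.

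Among the lists examined beside the network, the targets of MLX held the only genes called in an eKD2 comparison, and both calls were in RD-ES. This list holds only 2 genes and was chosen with earlier results of these data known. The calls thus do not speak for targets of MLX as a class. TXNIP, an inhibitor of glucose uptake and of thioredoxin, and ARRDC4, its arrestin-domain relative, are classic targets of MLX with MLXIP or MLXIPL. In RD-ES both rose in eKD2. TXNIP was at 42.3 and 37.3 FPKM in RD-ES controls and at 134 and 138 FPKM in RD-ES cells with eKD2 (log2 fold change 1.75, standard error 0.0957, limma adjusted p = 0.0021). ARRDC4 was at 2.34 and 2.46 FPKM in RD-ES controls and at 8.98 and 7.68 FPKM in RD-ES cells with eKD2 (log2 fold change 1.45, standard error 0.112, limma adjusted p = 0.0079).

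In SK-N-MC neither was called. TXNIP was at 25.1 and 28.6 FPKM in control and at 28.5 and 29.7 FPKM in eKD2 (log2 fold change 0.12, limma adjusted p = 0.68), and ARRDC4 was at 6.26 and 6.59 FPKM in control and at 8.24 and 7.42 FPKM in eKD2 (log2 fold change 0.25, limma adjusted p = 0.42). The change differed between the lines for TXNIP, by -1.64 on the log2 scale (95% confidence interval -1.97 to -1.31, limma adjusted p = 0.013), and the difference of ARRDC4 did not pass (-1.21, limma adjusted p = 0.075). With only the RD-ES groups fitted the calls in RD-ES were lost, with limma adjusted p = 0.11 for TXNIP and 0.37 for ARRDC4. The call of ARRDC4 was also lost without either RD-ES control library or either SK-N-MC control library, with limma adjusted p between 0.058 and 0.063. The interaction of TXNIP was lost without SK-N-MC eKD2 replicate 1 (log2 -1.61, limma adjusted p = 0.051). MLX itself was at 24.4 and 26.4 FPKM in RD-ES controls and at 21.2 and 26.6 FPKM in RD-ES cells with eKD2, which overlap.

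MLXIP was at 23.9 and 28.7 FPKM in RD-ES controls and at 21.6 and 26.2 FPKM in RD-ES cells with eKD2, and was lower in SK-N-MC controls than in RD-ES controls (13.2 and 12.4 FPKM, log2 fold change -0.98, limma adjusted p = 0.0018). MLXIPL was at 2.65 and 2.62 FPKM in SK-N-MC controls and at 5.59 and 5.54 FPKM in SK-N-MC cells with eKD2, a log2 fold change of 0.85 with an unadjusted p of 0.0055 that did not pass limma's adjusted threshold (adjusted p = 0.20). In RD-ES MLXIPL stayed at or under 0.863 FPKM. The other E-box binders MGA, USF1 and USF2 were not called in either eKD2 comparison. Between the control lines USF1 was lower in SK-N-MC (log2 fold change -0.75, limma adjusted p = 0.0015) and USF2 higher (0.75, limma adjusted p = 0.0021).

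The promoter windows of ARRDC4 and TXNIP are shown for the E-box and its variant. These are 2 of the 40 genes called higher in RD-ES eKD2, and no share of motifs was taken over all 40. ARRDC4 holds CACGTG starting 210 bases before its start, at chr15:97960453-97960538 on the plus strand. TXNIP holds no CACGTG but 2 copies of CACGAG with 5 bases between them, the form of a carbohydrate response element, starting 88 bases before its start, at chr1:145996611-145996707 on the minus strand. Searched on both strands, this paired motif was in 2 of 27305 genes with a window (0.00732%) and in none of the 9 network genes with one. Among the 10014 genes with a window that passed the expression filter it was in 2 (0.02%). Both stretches are from RefSeq on GRCh38.p14, with the motif in capitals.
ARRDC4: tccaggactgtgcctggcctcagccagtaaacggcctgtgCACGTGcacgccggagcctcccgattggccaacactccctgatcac
TXNIP: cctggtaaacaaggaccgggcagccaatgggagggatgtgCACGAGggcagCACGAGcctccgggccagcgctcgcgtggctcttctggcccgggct

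**Figure D4:**
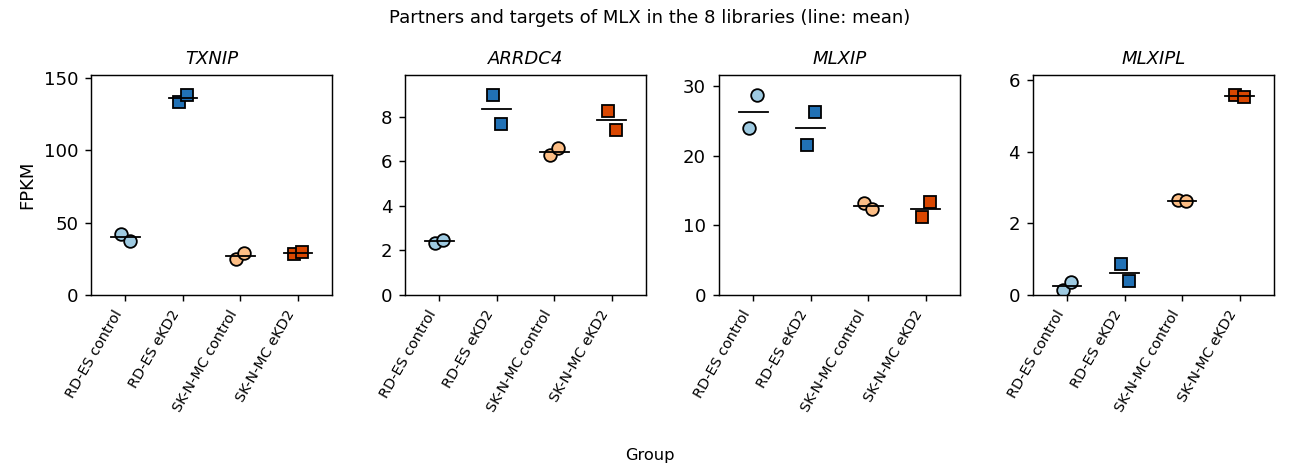
FPKM of TXNIP, ARRDC4, MLXIP and MLXIPL in each library, with a line at the mean of each group (n = 2). TXNIP lies at 134 and 138 FPKM in RD-ES cells with eKD2 and at or under 42.3 FPKM in all other libraries.

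Targets that MYC is known to activate were compared with the level of MYC. All 24 genes of this list, which serve ribosome production, metabolism and the cell cycle, passed the filter. A promoter window was matched for 21 of them. CACGTG was in 12 of the 21 (57.1%), against 12.8% of the genes with a window that passed the filter. The 12 were ODC1, CDK4, LDHA, FBL, EIF4E, NME1, SRM, HSPD1, RCC1, GNL3, WDR43 and RRP9. The list was made of known MYC targets, so this share is only a description. Although MYC was higher in SK-N-MC controls, 14 of the 24 were called lower there than in RD-ES controls, where 26.4% of all genes were, and 4 higher, where 31.4% were, with a median log2 fold change of -0.55 against 0.065 over all genes. Those lower included CDK4, a cell cycle kinase, at 532 and 549 FPKM in RD-ES controls and 325 and 316 FPKM in SK-N-MC controls (log2 fold change -0.75, limma adjusted p = 1.2e-04). RCC1, a regulator of nuclear transport, was at 102 and 104 FPKM in RD-ES controls and 44.3 and 46.8 FPKM in SK-N-MC controls (log2 fold change -1.16, limma adjusted p = 1.4e-04).

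POLR1B, a subunit of RNA polymerase I, and NOP56, a nucleolar protein, were lower in SK-N-MC controls as well, with log2 fold changes of -0.96 and -0.63. The 4 higher genes were CCND2, LDHA, NOP58 and FBL, with log2 fold changes of 1.27, 0.72, 0.49 and 0.45. Over the alternatives the number called lower was 13 to 17 of the 24. The median of the list was -0.70 after scaling each library to one median and -0.42 after quantile normalization.

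In the eKD2 comparisons 0 of the 24 targets were called in either line. In SK-N-MC, where MYC lay lower in eKD2, 20 of the 24 had a negative log2 fold change, where 51.1% of all genes did, and the median was -0.070. That median rests on single libraries, at -0.0083 without SK-N-MC control replicate 2 and -0.12 without SK-N-MC control replicate 1. At an unadjusted p under 0.05, 5 of the 24 were lower, where 7.29% of all genes were, and 2 were higher, where 5.71% were. LDHA, the lactate dehydrogenase subunit, was at 1065 and 1190 FPKM in SK-N-MC controls and at 876 and 904 FPKM in SK-N-MC cells with eKD2 (log2 fold change -0.34, limma adjusted p = 0.16). WDR43 and POLR1B, both of ribosome production, had log2 fold changes of -0.33 and -0.27 (limma adjusted p = 0.21 and 0.20). In RD-ES 14 of the 24 were negative, where 42.0% of all genes were, with a median of -0.013. At an unadjusted p under 0.05, 1 (NOP56) was lower, where 3.79% of all genes were, and 0 were higher, where 8.49% were.

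**Figure D5:**
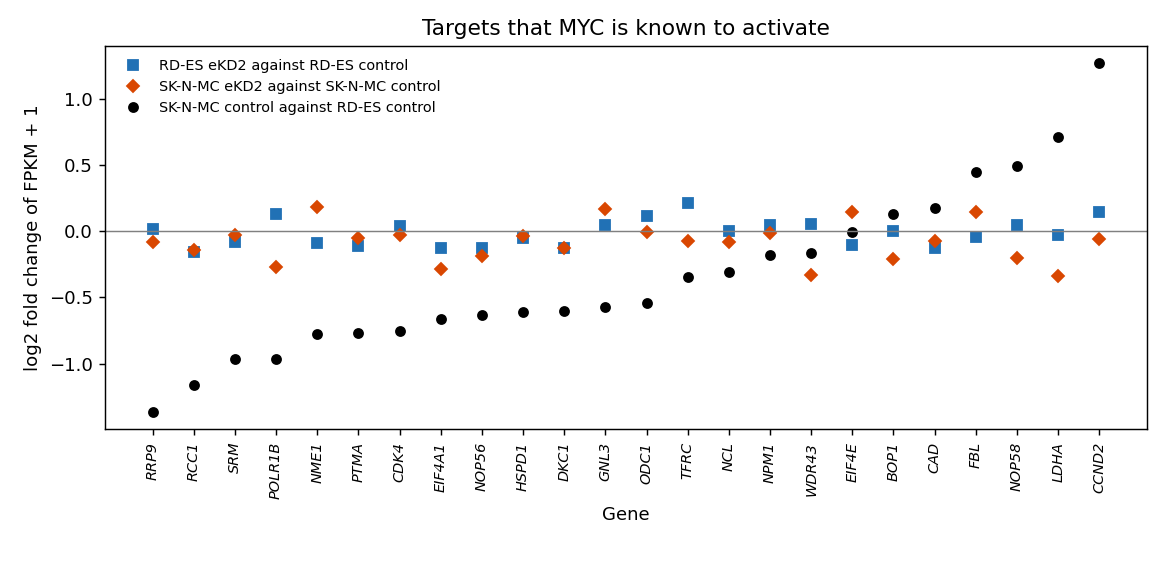
Log2 fold change of FPKM + 1 for the 24 targets that MYC is known to activate, ordered by the difference between the control lines (circles), with the eKD2 change in RD-ES (squares) and SK-N-MC (diamonds). The line difference runs from -1.36 for RRP9 to 1.27 for CCND2, and the eKD2 changes lie between -0.34 and 0.21.

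With the filter on low values, the cofactors were not called in the eKD2 comparisons either. Of 8 co-repressor genes used by the MXD proteins and MNT, SAP30, a subunit of the SIN3 complex, came nearest. It was at 39.9 and 40.4 FPKM in SK-N-MC controls and at 28.9 and 28.0 FPKM in SK-N-MC cells with eKD2 (log2 fold change -0.48, standard error 0.0631, limma adjusted p = 0.064, and 0.032 without a filter on low values), and at 45.6 and 46.8 FPKM in RD-ES controls and 49.4 and 51.2 FPKM in RD-ES cells with eKD2. Between the control lines, where 57.8% of all genes were called, 4 of the 8 were higher and 3 lower in SK-N-MC, among them SAP18 (log2 fold change 0.55) and SUDS3 (-0.58). Of 10 co-activator genes 4 were higher and 2 lower in SK-N-MC controls, against the same 57.8%, led by RUVBL1 and KAT2A (0.63 and 0.61), with EP400 among the lower (-0.65). KAT2A, a histone acetyltransferase, had a log2 fold change of 0.22 in both eKD2 comparisons (limma adjusted p = 0.30 and 0.28).

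Genes that set the turnover of MYC protein, 8 in all, had 0 calls in eKD2. SKP2, a ubiquitin ligase subunit, was lower in SK-N-MC controls (log2 fold change -0.57, limma adjusted p = 0.0010). KIAA1524, the table's symbol for CIP2A, which stabilizes MYC, had log2 fold changes of 0.24 in RD-ES eKD2 and -0.25 in SK-N-MC eKD2 (limma adjusted p = 0.37 and 0.33).

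Of 5 genes that MYC is known to repress, CDKN2B was listed at 0 in every library and 4 were tested, with 0 calls in eKD2. GADD45A, a stress gene, was at 15.4 and 14.9 FPKM in RD-ES controls and at 27.4 and 22.0 FPKM in RD-ES cells with eKD2 (log2 fold change 0.66, unadjusted p = 0.0010, limma adjusted p = 0.13). NDRG1, a hypoxia-responsive gene, was at 0.897 and 1.35 FPKM in RD-ES controls, 5.07 and 2.19 FPKM in RD-ES cells with eKD2, 15.6 and 21.3 FPKM in SK-N-MC controls and 11.3 and 11.3 FPKM in SK-N-MC cells with eKD2. It lay higher in eKD2 in RD-ES and lower in SK-N-MC, with a difference between the lines of -1.71 on the log2 scale (unadjusted p = 0.0088, limma adjusted p = 0.23).

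PVT1, the non-coding neighbour of MYC, was at 206 and 113 FPKM in RD-ES controls and at 52.1 and 45.3 FPKM in RD-ES cells with eKD2, with no overlap but a wide spread in control (log2 fold change -1.63, standard error 0.338, unadjusted p = 0.0029, limma adjusted p = 0.19). In SK-N-MC it was at 288 and 192 FPKM in control and at 169 and 240 FPKM in eKD2, which overlap. MYCNOS, which runs antisense to MYCN, stayed at or under 0.889 FPKM in every library and shares 3.56% of the exonic bases of MYCN.

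Across the 8 libraries, the genes averaging at least 10 FPKM whose log2 level was most like that of each member were listed as a description. The 8 points share the difference between the lines, so high values of Pearson's r are common. For MYC they were ADCY5, TFDP2 and RALB (each r = 0.996), and for MYCN CCT3, KIF20A and DDX31 (r = 0.992, 0.992 and 0.991). For MXD3 they were COQ2, NDUFA11 and SIN3B (r = 0.993, 0.991 and 0.989), the last a co-repressor of the MXD proteins. For MAX the highest was HERC1 (r = 0.981), for MLX TK1 (r = 0.948), for MNT HDGFL2 (r = 0.980), for MXI1 HAUS5 (r = 0.990), for MYCL SEC14L1 (r = 1.00) and for MXD4 B4GALT7 (r = 0.935).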

How the data were processed

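RNA-seq libraries (TruSeq RNA v2, poly-A selected, single-end reads of 75 bases) were aligned by the authors to GRCh37 (release 27 in the methods) with STAR 2.5.1, and the deposited FPKM values per gene and library come from cufflinks and cuffnorm. The submitters' processing notes list FastQC, STAR, Cuffnorm, DESeq2 and hg19. DESeq2, which the authors ran, needs read counts and was not used here.

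FPKM were compared as log2(FPKM + 1) with limma 3.58.1 in R 4.3.3 (lmFit and eBayes with trend) over 4 groups of 2 libraries in 1 fit, for 15175 genes averaging 1 FPKM or more, with Benjamini-Hochberg adjustment over all of them and a threshold of 0.05. Where the libraries share a culture, p-values measure technical spread only. The procedure was tested on simulated data. Depth was estimated from the steps between low FPKM values, using transcript length less 200 bases. Coordinates are from GENCODE 44 on GRCh37 and promoter windows from RefSeq on GRCh38.p14, matched by symbol.

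The members and lists were chosen with earlier results of these data known. Named genes are all members, LOXHD1, list genes called in eKD2, those of each list with the smallest p (up to 4 between the lines, up to 3 in each eKD2 comparison, of which a selection is printed), and the genes most like each member, of which up to 3 are printed. Alternatives were other pseudocounts (0.1 and 0.5), other filters, median scaling, quantile normalization, eBayes without trend, a replicate block, only the groups compared and each library left out. PECAM1, an endothelial marker on the lists, was not analysed here. Some items of the lists are not reported here.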

Additional observations from a re-analysis of the deposited data

Results flagged for a closer look

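The eKD2 change of TXNIP differed between the lines by a test of the difference itself. It was -1.64 on the log2 scale in SK-N-MC minus RD-ES (limma adjusted p = 0.013), with TXNIP at 134 and 138 FPKM in the RD-ES eKD2 libraries, above both RD-ES control libraries, and at 28.5 and 29.7 FPKM in SK-N-MC eKD2, which overlap control. The limma adjusted p was between 0.010 and 0.15 over the alternatives, and it passed in 14 of 16. TXNIP is on a list that was chosen with earlier results of these data known. MLXIPL had 0.863 and 0.385 FPKM in RD-ES eKD2 cells, and the estimated depths of these libraries were 7.49 and 14.5 M reads (M, mega), and the part of depth or of MLXIPL in the difference was not tested.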

How the results depend on the processing

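The number of network genes called was 0 in both eKD2 comparisons and the interaction under every alternative that was run, and the comparison of the control lines kept its count within 1.5 times of 6. MYC, MYCN, MYCL and MXI1 kept their calls between the lines, and MNT lost its call with only the groups compared (limma adjusted p = 0.059). No gene of the network had several entries in the table, so summing entries changed nothing. Over all genes the calls depended more on the processing. Without a filter there were 79 calls in RD-ES, 118 in SK-N-MC and 66 in the interaction, and with a minimum mean of 5 FPKM 24 in the interaction. With only the groups compared there were 1 and 13 calls, respectively, for RD-ES and SK-N-MC. Leaving out 1 library gave 27 to 71, 12 to 76 and 54 to 81 calls.

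Same-numbered control and eKD2 libraries deviated from their group means with r = 0.056 for the RD-ES pairs and 0.027 for the SK-N-MC pairs. The labels give only the number, and a low r cannot show that same-numbered libraries had no culture or day in common. With a replicate block 11, 5 and 7 genes were called in RD-ES, SK-N-MC and the interaction, 0 of them network genes, and 7375 with 6 network genes between the lines. TXNIP and ARRDC4 in RD-ES then had limma adjusted p of 0.060 and 0.16, and the interaction of TXNIP 0.15.

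Several small eKD2 changes turned direction. In RD-ES median scaling gave -0.026 for MAX, -0.011 for MXD3 and -0.036 for MNT, and quantile normalization -0.013 for MXD3 and -0.044 for MNT. Leaving out 1 library gave -0.093 to 0.18 for MAX, -0.091 to 0.20 for MXD3, -0.063 to 0.12 for MNT, -0.27 to 0.082 for MYC, -0.27 to 0.024 for MYCL, -0.59 to 0.14 for MXD4 and -0.25 to 0.064 for MLX in RD-ES. In SK-N-MC it gave -0.044 to 0.070 for MYCN (-0.068 after quantile normalization), -0.085 to 0.37 for MXD3, -0.15 to 0.027 for MXI1 and -0.52 to 0.067 for PVT1. In the interaction it gave -0.37 to 0.36 for MXD4, -0.14 to 0.31 for MXD3 and -0.037 to 0.24 for MAX, and MXD4 was 0.015, 0.0056, 0.070 and 0.063 with pseudocounts of 0.1 and 0.5, median scaling and quantile normalization. The median of the targets activated by MYC was 0.013 in RD-ES after quantile normalization, -0.034 to 0.012 without 1 library, and 0.018 in the interaction after median scaling. The log2 ratio of activators to antagonists in RD-ES eKD2 was -0.041 with MYC as the only activator. The cause of these turns was not tested. The alternatives for TXNIP, ARRDC4, PVT1, SAP30, the target list and the change of the ratio were chosen after seeing the data. MXD1 was too low to test.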
